A study of Mus musculus with 6 samples.

Results

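The genes described here are Ncr1, Klrb1c, Cd226, Tyrobp, Hcst and Nkg7, which are 3 activating receptors, 2 adaptors and 1 granule protein of natural killer (NK) cells. They were chosen by name, with earlier results of these data known, and make up 6 of the 34187 gene features in the deposited count matrices. The study asked how an IL-10 molecule that also engages an IL-2 receptor chain (IL10/2-Trikine) acts on tumor-infiltrating lymphocytes, in comparison with PBS and with a monomeric IL-10 (mono-IL10). C57BL/6 mice carried subcutaneous 6694c2vTRP1 pancreatic tumors and received PBS, 26 µg of mono-IL10 or 30.6 µg of IL10/2-Trikine per mouse intraperitoneally, in 2 doses from day 8, and all tumors were taken on day 14. Each treatment is a single library of droplet-based 5' single-cell RNA sequencing, so treatment and library cannot be told apart. It holds bead-enriched CD45+ tumor cells from 5 mice, which are separable afterwards by a hashtag antibody given to each mouse's cells. The sources used here give both sexes and an age range of mice for the tumor model in general, and neither for the single mice behind these libraries.

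The authors' annotation sorted 516 cells of the PBS library, 843 of the mono-IL10 library and 725 of the IL10/2-Trikine library into 12 clusters of T and NK cells, and 1383 of these 2084 cells carried a mouse. The cells without a mouse (32.6% of PBS, 24.7% of mono-IL10 and 44.8% of IL10/2-Trikine cells) had no hashtag call and entered only values pooled over a library. Median UMIs (unique molecular identifiers, the counted molecules) per annotated cell were 2780, 3959 and 2635 for these libraries in turn, and the sums per mouse held 124258 to 995020 UMIs. The libraries shared 408 to 700 cell barcodes in pairs, and 0 barcodes were annotated in both libraries of a pair. Despite the CD45 isolation, 10901, 7885 and 23137 cells of the PBS, mono-IL10 and IL10/2-Trikine libraries outside the annotation carried epithelial markers, and these tumor epithelial-like cells served as the measure of free RNA.

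NK cells read target cells through germline-encoded receptors, many of which have no signaling tail of their own. NKp46, the product of Ncr1, passes its signal through ITAM-bearing chains such as CD3 zeta and Fc receptor gamma, and NK1.1, the product of Klrb1c, also signals through Fc receptor gamma. DAP12, encoded by Tyrobp, carries an ITAM that recruits Syk and ZAP-70, whereas DAP10, encoded by Hcst, carries a motif for PI3 kinase and serves NKG2D. DNAM-1, the product of Cd226, binds the nectin-family ligands Pvr and Nectin2 on target cells and competes there with Tigit and Cd96, and Nkg7 is a membrane protein of cytotoxic granules. Ncr1 and Klrb1c are textbook markers of mouse NK cells of this strain. Tyrobp and Hcst are also used by macrophages, neutrophils and dendritic cells, where Tyrobp pairs with receptors of the Trem family, and Nkg7 and Hcst are also made by cytotoxic T cells.

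Promoter sequences are shown because the members differed in the cells and treatments in which they moved. RefSeq promoter windows of 300 bases (GRCm38.p6) were found for 4 of the 6 members, namely Ncr1, Klrb1c, Hcst and Nkg7, and not for Cd226 and Tyrobp. The 250 bases before the start are given 5' to 3' on the gene's strand, in lower case with motif matches in capitals. Ncr1 lies at chr7:4337465-4337714 on the plus strand, Klrb1c at chr6:128788642-128788891 on the minus strand, Hcst at chr7:30419855-30420104 on the minus strand and Nkg7 at chr7:43436888-43437137 on the plus strand.
Ncr1: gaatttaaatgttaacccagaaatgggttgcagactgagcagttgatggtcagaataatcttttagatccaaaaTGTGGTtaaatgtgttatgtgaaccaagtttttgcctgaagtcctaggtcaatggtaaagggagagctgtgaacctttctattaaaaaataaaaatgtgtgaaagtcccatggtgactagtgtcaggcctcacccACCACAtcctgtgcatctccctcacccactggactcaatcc
Klrb1c: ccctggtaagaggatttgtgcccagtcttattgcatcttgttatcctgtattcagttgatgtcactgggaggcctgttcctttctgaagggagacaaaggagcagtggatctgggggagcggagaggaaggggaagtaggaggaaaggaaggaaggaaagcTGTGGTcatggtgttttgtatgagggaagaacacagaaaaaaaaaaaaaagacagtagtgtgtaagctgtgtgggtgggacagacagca
Hcst: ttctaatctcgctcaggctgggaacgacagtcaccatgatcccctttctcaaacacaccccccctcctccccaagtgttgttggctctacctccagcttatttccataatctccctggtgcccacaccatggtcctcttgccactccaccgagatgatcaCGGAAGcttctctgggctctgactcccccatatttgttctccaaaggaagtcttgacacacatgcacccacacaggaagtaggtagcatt
Nkg7: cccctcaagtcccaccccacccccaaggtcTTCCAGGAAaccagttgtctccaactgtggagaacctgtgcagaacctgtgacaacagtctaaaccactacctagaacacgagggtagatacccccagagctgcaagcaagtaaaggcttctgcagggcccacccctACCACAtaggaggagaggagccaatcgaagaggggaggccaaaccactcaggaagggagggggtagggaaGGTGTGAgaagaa

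In all, 4 motifs were searched on both strands, with no overlap between the matches. The RUNX motif (TGTGGT) was found in 16.8% of the 32851 promoter windows in the table. The table lists 2 starts for Ncr1, and the motif occurred at -176 and -41 bases from the start whose window is printed and at -185 and -50 from the other, and also at -89 of Klrb1c and at -83 of Nkg7. The STAT motif (GAS, TTCNNNGAA) was found in 8.3% of windows and occurred at -220 of Nkg7. The T-box motif (GGTGTGA) was found in 3.98% of windows and occurred at -13 of Nkg7, and the ETS motif (CGGAAG) was found in 16.9% and occurred at -90 of Hcst. These are letter matches only and were not tested for binding.

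The annotation was first read against lineage markers. In the 795 cells of the NK cluster, the NK markers Klrd1 and Gzma stood at 952 and 2491 CPM (counts of the gene scaled to a common total of all its cells' counts) and the T cell receptor chain genes Cd3d and Cd3e at 21.3 and 6.0 CPM. Of the other T cell markers, Cd3g, Trac and Cd5 stood at 28.6, 18.7 and 0.67 CPM there. Trbc2 was higher, at 125 CPM in NK beside 448 CPM in Cycling_T. In the 349 cells of Cycling_T, Cd3d stood at 558 CPM and Cd3e at 373 CPM, beside Klrd1 at 557 CPM and Gzma at 1267 CPM. Klrd1 was as high in other T cell clusters (664 CPM in act_CD4T and 623 CPM in gdT/NKT), whereas Gzma reached at most 867 CPM there, in gdT/NKT. The NK markers Prf1, Klra4 and Klra8 stood at 206, 85.4 and 47.6 CPM in Cycling_T, beside 674, 291 and 281 CPM in NK. Cycling_T was tested apart from the other T cells. In the 200 cells of naive_CD8T, Gzma stood at 499 CPM and Klrd1 at 418 CPM. Prf1, Klra8 and Klra4 stood at 49.75, 7.54 and 4.52 CPM there. The names of the naive clusters are the authors' labels, and a naive state was not tested.

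Levels were averaged over mice with at least 5 cells of a cluster, and the 8 of 12 annotated clusters with at least 4 such mice are compared. The other 4, Cycling_Treg, naive_T, Th17/ILCs and ISG+CD8T, held 32, 25, 21 and 16 cells and are outside every order given here. No test was run because the clusters were made from the same expression values. The treatments are mixed in these means: all 4 mice with enough Cycling_NK cells were IL10/2-Trikine mice, and the naive clusters had PBS and mono-IL10 mice alone.

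Ncr1 was highest in the NK cluster at 225 ± 49.1 CPM (SD, n = 15) and in Cycling_NK at 184 ± 57.1 CPM (SD, n = 4). It was 78.4 ± 65.2 CPM (SD, n = 14) in Cycling_T and 66.1 ± 48.4 CPM (SD, n = 12) in gdT/NKT, and was 0 in every mouse in naive_CD8T (n = 9) and naive_CD4T (n = 6). Within IL10/2-Trikine, Ncr1 was 258 ± 34.7 CPM (SD, n = 5) in NK, 184 ± 57.1 CPM (SD, n = 4) in Cycling_NK and 143 ± 48.0 CPM (SD, n = 5) in Cycling_T. There the step from NK to Cycling_NK exceeded the larger SD and the step from Cycling_NK to Cycling_T did not.

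Klrb1c was 399 ± 76.2 CPM (SD, n = 4) in Cycling_NK and 274 ± 97.6 CPM (SD, n = 15) in NK over all treatments. Within IL10/2-Trikine, the NK cluster stood at 386 ± 66.9 CPM (SD, n = 5), less than 1 SD from Cycling_NK. In the mono-IL10 pools Klrb1c was 115 CPM in 10 Cycling_NK cells (95% exact Poisson interval 63.0 to 193) and 238 CPM in NK (213 to 266), whereas in the IL10/2-Trikine pools it was 420 CPM (331 to 525) and 367 CPM (331 to 407). It was 151 ± 49.8 CPM (SD, n = 12) in gdT/NKT, a step from NK larger than the larger SD, and 80.5 ± 74.6 CPM (SD, n = 14) in Cycling_T. Cd226 did not follow the NK clusters at all. It ranged from 171 ± 130.2 CPM (SD, n = 6) in naive_CD4T to 81.3 ± 66.7 CPM (SD, n = 9) in act_CD4T across 6 clusters, the NK cluster among them at 104 ± 64.5 CPM (SD, n = 15), with no step above the SD, before a drop to 11.1 ± 22.1 CPM (SD, n = 4) in Cycling_NK and 7.84 ± 16.5 CPM (SD, n = 9) in Treg. In the IL10/2-Trikine pool, 2 Cd226 UMIs were counted in 54 Cycling_NK cells, or 11.05 CPM (95% exact Poisson interval 1.34 to 39.9), beside 93.5 CPM (75.7 to 114) in 372 NK cells. Such intervals cover counting error only.

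The adaptors had different orders. Tyrobp was 2755 ± 626 CPM (SD, n = 15) in NK and 2374 ± 677 CPM (SD, n = 4) in Cycling_NK, then 1064 ± 480.4 CPM (SD, n = 12) in gdT/NKT, 657 ± 341 CPM (SD, n = 14) in Cycling_T and 75.0 ± 107 CPM (SD, n = 6) in naive_CD4T, the lowest of the 8. Within IL10/2-Trikine, Tyrobp was 3062 ± 354 CPM (SD, n = 5) in NK, and the step to Cycling_NK exceeded the larger SD. Cycling_Treg was lower still, where the pools of 13, 6 and 13 cells (PBS, mono-IL10, IL10/2-Trikine) held 31.8, 14.4 and 22.1 CPM of Tyrobp. Hcst was instead highest in the clusters named naive_CD8T, at 1239.7 ± 248 CPM (SD, n = 9), and naive_CD4T, at 1119.6 ± 158 CPM (SD, n = 6). It was 794 ± 156 CPM (SD, n = 12) in gdT/NKT, 553 ± 115 CPM (SD, n = 15) in NK and, of the 8, lowest in Cycling_NK at 349 ± 93.7 CPM (SD, n = 4), beside 556 ± 113 CPM (SD, n = 5) in NK within IL10/2-Trikine. In the Cycling_Treg pools Hcst was 52.9, 115 and 155 CPM in the same order. The steps of Hcst from naive_CD4T to gdT/NKT and from there to NK exceeded the larger SD. Nkg7 ranged from 2103 ± 593 CPM (SD, n = 9) in naive_CD8T, 2086 ± 885 CPM (SD, n = 4) in Cycling_NK and 1884 ± 357 CPM (SD, n = 15) in NK to 677 ± 365 CPM (SD, n = 9) in Treg, with no step between neighbours among the 8 above the larger SD, and was 127, 346 and 442 CPM in the Cycling_Treg pools. Th17/ILCs held 0 Nkg7 UMIs in every pool, and ISG+CD8T held 1622, 2247 and 3596 CPM in the same order. The PBS and mono-IL10 pools of naive_T, of 5 and 19 cells, held 204 and 171 CPM of Nkg7 and 204 and 48.9 CPM of Hcst.

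**Figure D1:**
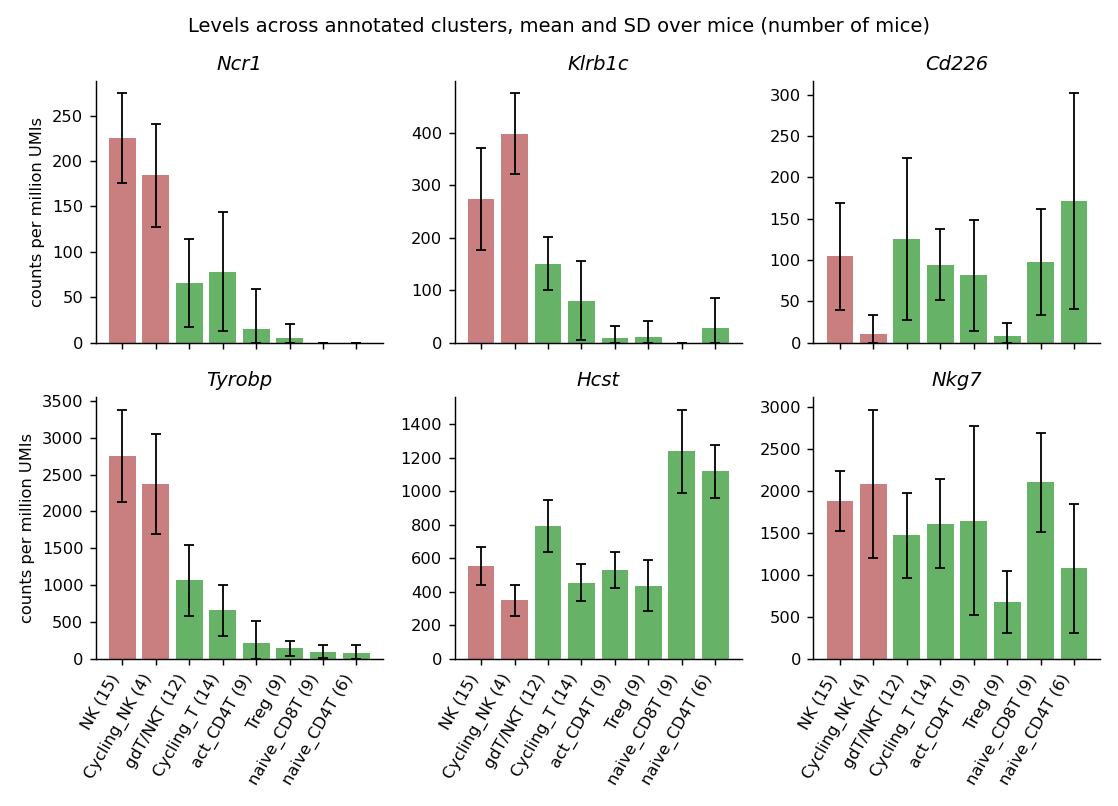
Level of each member (CPM, vertical axis) in the 8 annotated clusters with at least 4 mice of 5 or more cells; bars are means and error bars SDs over mice, with the number of mice in parentheses, red for NK clusters and green for T cell clusters. Ncr1, Klrb1c and Tyrobp stand highest in the NK clusters, Hcst is highest in naive_CD8T and naive_CD4T, and in order of level no Nkg7 bar differs from the next by more than the larger SD.

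Likeness of pattern was described over 20 cluster and treatment pools, which share libraries, and 5922 genes, by Pearson's r of log2(CPM + 10). The genes most like Ncr1 were Klrb1a (r = 0.967), Lrmda (0.956) and Aoah (0.947), and those most like Tyrobp were Lrmda (0.954), Aoah (0.949) and Ncr1 itself (0.946). Klrb1c was most like Clnk (0.957), Lrmda (0.915) and Ncr1 (0.909). Hcst was most like Ptpn22 (0.901) and Rnf138 (0.898), Cd226 like Jaml (0.844) and Rpl8 (0.837), and Nkg7 like Slamf7 (0.853) and Abr (0.840). Between Tyrobp and Hcst r was -0.371.

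Per cell, shares were compared after each cell was thinned to 1500 UMIs, since depth differed, with medians in the NK cluster of 3086, 4846 and 2531 UMIs for PBS, mono-IL10 and IL10/2-Trikine. Tyrobp was found in 87.6% of PBS, 95.7% of mono-IL10 and 94.6% of IL10/2-Trikine NK cells, and Nkg7 in 81.8%, 92.1% and 87.6%. Klrb1c was found in 35.9%, 32.4% and 43.3% in the same order, Ncr1 in 20.6%, 23.3% and 26.1%, and Cd226 in 10.6%, 15.8% and 12.1%. Unthinned, Klrb1c was found in 54.1%, 60.1% and 61.0% and Ncr1 in 37.6%, 53.4% and 41.1%, so the order of the groups differed between thinned and unthinned shares for both receptors. All 6 members were found together in 0 of the PBS NK cells (0 of 170, an upper limit of 1.76%), 0.395% of the mono-IL10 and 1.88% of the IL10/2-Trikine NK cells.

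Free RNA was read from 3000 tumor epithelial-like cells per library, with median depths of 20111, 29435 and 8449 UMIs for PBS, mono-IL10 and IL10/2-Trikine. At 1500 UMIs, Ncr1, Klrb1c and Cd226 were found in at most 0.167% of these cells, Hcst in 0.467 to 0.935% and Nkg7 in 0.501 to 1.30%. Tyrobp was found in 7.34%, 4.97% and 7.88% in PBS, mono-IL10 and IL10/2-Trikine. Every member's share in the NK cluster was above these background shares. The epithelial-like cells were deeper than NK cells before thinning. An equal amount of free RNA per droplet would therefore be diluted more in them. These shares may be too low as a background for NK and T cells, and no correction was made.

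Across all annotated T and NK cells, 4 of the 6 members were higher with IL10/2-Trikine than with PBS, beside 9.49% of the 4595 genes tested that were called in either direction. The test was edgeR's quasi-likelihood test on counts summed per mouse, with Benjamini-Hochberg adjustment over all genes and a threshold of 0.05, and values for mice are given in the order of mice 1 to 5, which is only a name. In such a sum, more cells of a type and more RNA per cell cannot be told apart. NK and Cycling_NK cells made up 40.3 to 64.6% of a mouse's annotated cells with IL10/2-Trikine (median 58.7%), 16.7 to 37.5% with PBS (28.2%) and 25.6 to 37.2% with mono-IL10 (29.5%). The summed level of the 8 NK markers, which include no member, was 3973 to 8168 CPM with IL10/2-Trikine, 775 to 1757 CPM with PBS and 2309 to 2798 CPM with mono-IL10. The 6 T cell markers summed to 619 to 1185, 1459 to 2529 and 2222 to 2592 CPM in the same order, with no marker of either list at 0, and the part of these shifts in the members' sums was not tested.

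For IL10/2-Trikine against PBS in this sum, Tyrobp had the smallest adjusted p of the members. It stood at 1895, 1732, 2133, 2164 and 2075 CPM in the 5 IL10/2-Trikine mice, at 729, 1126, 810.4, 972 and 907 CPM in the PBS mice and at 1424, 1219, 1187, 1234 and 1313 CPM in the mono-IL10 mice. The 3 groups did not overlap, with mono-IL10 between the others. The log2 fold change of IL10/2-Trikine was 1.15 ± 0.10 (SE) against PBS (adjusted p = 7.83e-08, edgeR) and 0.60 ± 0.10 against mono-IL10 (adjusted p = 0.000298, edgeR), and that of mono-IL10 against PBS was 0.55 ± 0.10 (adjusted p = 0.0038, edgeR).

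The NK receptors Klrb1c and Ncr1 were raised with IL10/2-Trikine against both other groups. Klrb1c stood at 285, 215, 314, 265 and 274 CPM with IL10/2-Trikine, 71.4, 156, 90.0, 79.5 and 90.1 CPM with PBS and 92.5, 85.8, 87.5, 81.7 and 111 CPM with mono-IL10. Every IL10/2-Trikine mouse was above every other mouse, while PBS and mono-IL10 mice overlapped. The log2 fold change was 1.45 ± 0.17 against PBS (adjusted p = 9.26e-06, edgeR) and 1.50 ± 0.15 against mono-IL10 (adjusted p = 8.19e-07, edgeR).

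Ncr1 stood at 173, 145, 241, 231 and 160.1 CPM with IL10/2-Trikine, 51.0, 119, 94.1, 37.3 and 90.1 CPM with PBS and 76.4, 96.4, 112, 69.7 and 117 CPM with mono-IL10. Here too the IL10/2-Trikine mice lay above all others. Its log2 fold change was 1.27 ± 0.25 against PBS (adjusted p = 0.00185, edgeR) and 0.97 ± 0.21 against mono-IL10 (adjusted p = 0.00397, edgeR). After the sums were thinned to 1 total, the second adjusted p was 0.117. Cd226 passed in no comparison of this sum, with log2 fold changes of -0.07 ± 0.22 against PBS (adjusted p = 0.894, edgeR) and -0.40 ± 0.19 against mono-IL10 (adjusted p = 0.208, edgeR).

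Against mono-IL10, 4 of the 6 members passed, beside 8.84% of genes: Ncr1, Klrb1c and Tyrobp were higher and Hcst was lower. Hcst stood at 416, 458, 467, 395 and 529 CPM with IL10/2-Trikine, 650.2, 519, 618, 774 and 582 CPM with mono-IL10 and 556, 532, 544, 584 and 553 CPM with PBS. The mono-IL10 mouse at 519 CPM lay within the IL10/2-Trikine range, and the PBS mice were all just above that range. In the fit, the log2 fold change was -0.51 ± 0.12 against mono-IL10 (adjusted p = 0.00545, edgeR) and -0.27 ± 0.12 against PBS (adjusted p = 0.178, edgeR).

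Between mono-IL10 and PBS, 2 of the 6 members passed, Tyrobp and Nkg7, both higher, beside 1.11% of genes. Nkg7 stood at 2095, 1783, 1902, 2087 and 2140.4 CPM with mono-IL10, 1600.5, 1594, 1956, 1538 and 1738 CPM with IL10/2-Trikine and 1469, 1419, 855, 1161 and 965 CPM with PBS. Both treated groups lay above every PBS mouse, and they overlapped each other. In the fit, the log2 fold change was 0.83 ± 0.11 for mono-IL10 (adjusted p = 0.000243, edgeR) and 0.53 ± 0.12 for IL10/2-Trikine (adjusted p = 0.00403, edgeR), both against the same PBS mice, and -0.30 ± 0.11 between the treated groups (adjusted p = 0.107, edgeR). No call in this sum changed when any 1 of the 15 mice was left out.

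Within NK cells (the clusters NK and Cycling_NK), 2 of the 6 members were higher with IL10/2-Trikine than with PBS, Klrb1c and Tyrobp, beside 4.42% of 2355 genes. Against mono-IL10 only Klrb1c passed among the 6, beside 2.38% of genes, and between mono-IL10 and PBS only Tyrobp passed, beside 0.297%. These sums held 10 to 69 cells and 33913 to 333657 UMIs per mouse in 5 PBS, 4 mono-IL10 and 5 IL10/2-Trikine mice, with mono-IL10 mouse 3 left out for having 9 cells.

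Klrb1c, the NK1.1 gene, set IL10/2-Trikine apart from both other groups within NK cells. It stood at 437, 348, 420.0, 329.5 and 389 CPM with IL10/2-Trikine, 177, 295, 226, 186 and 141 CPM with PBS and 246, 201, 183 and 219.6 CPM in mono-IL10 mice 1, 2, 4 and 5. The lowest IL10/2-Trikine mouse was above the highest PBS mouse, and PBS and mono-IL10 mice were interleaved. Group means were 385 ± 45.7 CPM (SD, n = 5), 205 ± 58.8 CPM (SD, n = 5) and 212 ± 26.7 CPM (SD, n = 4). The log2 fold change was 0.81 ± 0.19 against PBS (adjusted p = 0.013, edgeR) and 0.77 ± 0.16 against mono-IL10 (adjusted p = 0.013, edgeR), and 0.03 ± 0.19 between mono-IL10 and PBS (adjusted p = 0.989, edgeR). Both calls were kept without any 1 of the 14 mice but were lost after thinning the sums to 1 total, at log2 fold changes of 0.72 (adjusted p = 0.202) and 0.90 (adjusted p = 0.213), and the call against mono-IL10 was also lost in the NK cluster alone (adjusted p = 0.0613) and with no filter on low counts (adjusted p = 0.0823, edgeR).

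Reads of Klrb1c may be shared with its close paralogs of the Nkr-p1 family, so the family was read beside it. Within NK cells 3 paralogs were tested against PBS, and 1 passed, in the opposite direction: Klrb1b, whose product is an inhibitory receptor, had a log2 fold change of -0.93 ± 0.23 (adjusted p = 0.0176, edgeR). The median of the 3 paralogs was -0.164, beside -0.0236 over all genes tested.

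Tyrobp moved with both treatments within NK cells. It stood at 2919, 2790.4, 3119.8, 2716 and 3009 CPM with IL10/2-Trikine, 3779, 2795, 3134 and 2480.4 CPM with mono-IL10 and 1917, 1937, 2130.3, 2269 and 1872 CPM with PBS. Every treated mouse lay above every PBS mouse, and the treated groups overlapped. Against PBS, the log2 fold change was 0.52 ± 0.11 with IL10/2-Trikine (adjusted p = 0.00896, edgeR) and 0.64 ± 0.12 with mono-IL10 (adjusted p = 0.00698, edgeR), and between the treated groups it was -0.13 ± 0.11 (adjusted p = 0.641, edgeR). The mono-IL10 call was lost without mono-IL10 mouse 1, the highest of all (adjusted p = 0.0821), and after thinning the sums to 1 total (0.53, adjusted p = 0.0819), both by edgeR. The 9 macrophage markers summed to 165 to 483 CPM in IL10/2-Trikine, 287 to 647 CPM in mono-IL10 and 29.5 to 745 CPM in PBS NK cells, overlapping between groups, with Csf1r and Adgre1 at 0 in PBS. Of the 9, Ly6c2 was highest in the NK cluster at 261 CPM, followed by Lyz2 at 56.3 CPM. Ly6c2 also stood at 884 CPM in gdT/NKT, so the sum is no clean measure of macrophage RNA. The part of myeloid RNA in the Tyrobp differences was not tested.

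The other members did not pass within NK cells. Ncr1 stood at 241, 221, 270.0, 279.6 and 216 CPM with IL10/2-Trikine, 206, 199.8, 296, 109 and 221 CPM with PBS and 209.8, 205, 196 and 219.6 CPM with mono-IL10, so its higher level over all T and NK cells had no counterpart past the test within NK cells (log2 fold change 0.29 ± 0.21 against PBS, adjusted p = 0.498, edgeR). Nkg7 was 1598 to 2609.9 CPM with IL10/2-Trikine, 1968 to 2215 CPM with mono-IL10 and 1143 to 1833 CPM with PBS. The mono-IL10 mice did not overlap the PBS mice, yet the log2 fold change of 0.52 ± 0.15 had an adjusted p of 0.133 (edgeR), and that of IL10/2-Trikine against PBS was 0.44 ± 0.14 (adjusted p = 0.0839, edgeR; 0.0401 without IL10/2-Trikine mouse 4). Hcst differed from PBS by -0.19 ± 0.18 on the log2 scale (adjusted p = 0.638, edgeR) and Cd226 by -0.56 ± 0.41 (adjusted p = 0.508, edgeR), with Cd226 at 0 to 183 CPM among PBS mice.

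**Figure D2:**
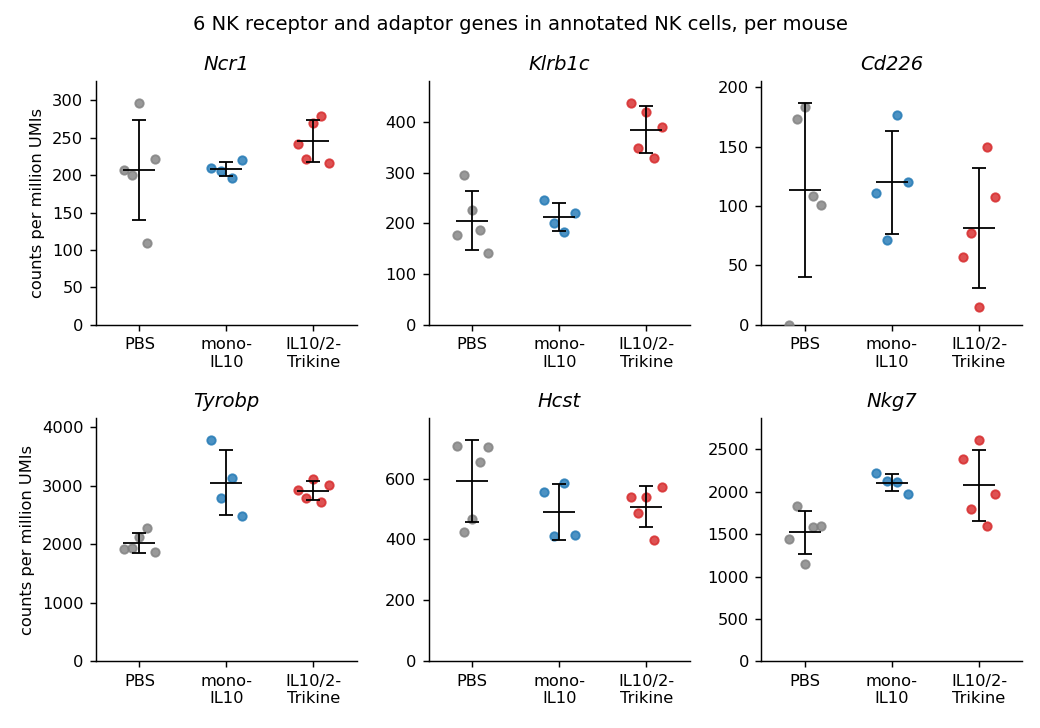
Level of each member (CPM, vertical axis) in the summed NK and Cycling_NK cells of each mouse, by treatment; each dot is a mouse, and the black marks are the mean and SD. All 5 IL10/2-Trikine mice lie above the PBS and mono-IL10 mice for Klrb1c, and all treated mice lie above the PBS mice for Tyrobp.

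The pathway around the members was read from gene lists in the same NK cell fit. Of 5 genes listed for receptor complexes with Tyrobp or Hcst in lymphocytes, 1 passed against PBS, Klrd1 at 0.57 ± 0.16 (adjusted p = 0.0379, edgeR). It encodes the CD94 chain, which itself pairs with NKG2 receptors, and the list median was 0.567. None of 12 proximal signaling genes tested, of 6 other activating NK receptors, of the 2 CD226-axis genes tested or of the 1 other ITAM chain tested passed against PBS by edgeR, and 1, 1, 0 and 0 of them, in that order, had an unadjusted p under 0.05. Over all genes in this fit, 4.42% passed in either direction, 2.46% as higher, and 17.9% had an unadjusted p under 0.05. Of 8 granule genes, 3 rose: Gzma by 2.60 ± 0.43 (adjusted p = 0.00143), Prf1 by 1.52 ± 0.31 (adjusted p = 0.00696) and Gzmb by 1.20 ± 0.26 (adjusted p = 0.00903), all by edgeR on the log2 scale, with a list median of 0.088. Gzma, Prf1 and Klrd1 are also on the list of NK markers, whose sum within NK cells was 6814 to 12989 CPM with IL10/2-Trikine, 4233 to 5088 CPM with mono-IL10 and 1592 to 4157 CPM with PBS.

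Against mono-IL10, the only listed gene besides Klrb1c to pass within NK cells was Srgn, the granule proteoglycan, which fell (log2 fold change -0.54 ± 0.12, adjusted p = 0.0155, edgeR). Over all T and NK cells, Fcer1g, the Fc receptor gamma chain used by Ncr1 and Klrb1c products, rose with IL10/2-Trikine against PBS (0.56 ± 0.12, adjusted p = 0.00265, edgeR), and the T cell receptor chains Cd3g (-1.21 ± 0.17), Cd3d (-1.30 ± 0.19) and Cd3e (-1.12 ± 0.20) fell in the same fit. There 3 of the 5 genes listed for receptor complexes with Tyrobp or Hcst rose (Klrd1, Klra4 and Klra8). Of the 9 other NK receptors tested 4 rose, among them Klre1 (1.06 ± 0.15) and Cd244a (1.17 ± 0.22), and 1 fell, Cd2 (-0.57 ± 0.18). Both counts stand beside 9.49% of all genes called in either direction.

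In T cells other than Cycling_T, the adaptors and Nkg7 moved in different directions, and fewer members could be tested. Ncr1 and Klrb1c held 30 and 77 UMIs over all mice and were too low for the test. Mean Ncr1 was 69.7 CPM with IL10/2-Trikine, 8.20 CPM with mono-IL10 and 13.4 CPM with PBS. Mean Klrb1c was 78.1, 26.2 and 47.5 CPM in the same order. For both receptors every IL10/2-Trikine mouse lay above every mono-IL10 mouse. The share of all genes that separated these groups so is not given. In exact permutation tests, 17.5% of the genes past the filter had an unadjusted p under 0.05 in this comparison. Without the gdT/NKT cells, Ncr1 was at 0 in every PBS and mono-IL10 mouse and in 2 of the 3 IL10/2-Trikine mice, and 72.5 CPM in the other. IL10/2-Trikine mice 3 and 4 had 7 such cells each and were left out, which left 3 IL10/2-Trikine mice with 20 to 30 cells beside 5 PBS mice with 22 to 70 and 5 mono-IL10 mice with 22 to 132. Against PBS, 0 of the 4 members tested passed in edgeR's quasi-likelihood test, beside 1.42% of 2886 genes, and 1 of them, Tyrobp, had an unadjusted p under 0.05 (0.00542; adjusted p = 0.126), beside 13.7% of genes. Against mono-IL10, 2 of 4 passed, beside 4.75% of genes, and between mono-IL10 and PBS 1 of 4 passed, beside 0.901%.

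Tyrobp stood at 978, 553 and 493 CPM in IL10/2-Trikine mice 1, 2 and 5, 187, 294, 93.4, 212 and 306 CPM with mono-IL10 and 501, 318, 208, 388 and 416 CPM with PBS. The IL10/2-Trikine mice lay above all mono-IL10 mice and overlapped PBS at the lower end. The log2 fold change against mono-IL10 was 1.55 ± 0.29 (adjusted p = 0.00313, edgeR). Ncr1 and Klrb1c, too low for the test, separated these groups in the same direction, and the part of NK transcripts in the Tyrobp difference was not tested. In gdT/NKT, which has the highest Tyrobp of the T cell clusters, IL10/2-Trikine mice 2 and 5 had 1378 and 1007 CPM, beside 444 to 1271 CPM with PBS and 296 to 2099 CPM with mono-IL10. The pools of all gdT/NKT cells, which include cells with no mouse assigned, stood at 1938 CPM with IL10/2-Trikine (95% exact Poisson interval 1698 to 2203), 1189 CPM with mono-IL10 (1064 to 1324) and 897 CPM with PBS (780 to 1027), so the pools were ordered while the mice overlapped.

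Hcst went the other way in the same T cells. It stood at 382, 541 and 457 CPM with IL10/2-Trikine, 829, 670.3, 809, 967 and 858 CPM with mono-IL10 and 569, 741, 564, 573 and 451 CPM with PBS. IL10/2-Trikine lay below every mono-IL10 mouse (log2 fold change -0.88 ± 0.19, adjusted p = 0.00745, edgeR), and mono-IL10 against PBS missed the threshold (0.58 ± 0.14, adjusted p = 0.0501, edgeR). Without IL10/2-Trikine mouse 1, the Tyrobp and Hcst calls against mono-IL10 were lost (adjusted p = 0.0659 and 0.0772), and without IL10/2-Trikine mouse 1 or 2, PBS mouse 2 or mono-IL10 mouse 2, Hcst passed for mono-IL10 against PBS, with a lowest adjusted p of 0.0193 (edgeR). The naive_CD8T cluster, where Hcst is highest, held 38, 160 and 2 cells for PBS, mono-IL10 and IL10/2-Trikine, and its part in the difference was not tested.

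Nkg7 in T cells rose with mono-IL10. It stood at 1732, 1428, 1899, 2059.7 and 2081 CPM with mono-IL10, 1312, 1082, 624, 869 and 546 CPM with PBS and 947, 1358 and 1316 CPM with IL10/2-Trikine. The mono-IL10 mice were all above the PBS mice and the IL10/2-Trikine mice. The log2 fold change of mono-IL10 against PBS was 1.10 ± 0.18 (adjusted p = 0.00129, edgeR), and that of IL10/2-Trikine against mono-IL10 was -0.64 ± 0.22 (adjusted p = 0.0904, edgeR). In the naive_CD8T pools alone, Nkg7 was at 2462 CPM (95% exact Poisson interval 2334 to 2595) with mono-IL10 and 1535 CPM (1298 to 1802) with PBS. This cluster held 38, 160 and 2 cells for PBS, mono-IL10 and IL10/2-Trikine, and the part of its share in the Nkg7 differences was not tested. Of 9 other granule genes, 3 rose in the same fit, beside 0.901% of genes called in either direction: Gzma (3.35 ± 0.46), Gzmb (1.27 ± 0.20) and Cst7 (1.11 ± 0.24) on the log2 scale. The NK markers in T cells, Gzma among them, summed to 944 to 1593 CPM with mono-IL10, 703 to 2729 CPM with IL10/2-Trikine and 432 to 565 CPM with PBS, without overlap between the treated groups and PBS, and their part in these differences was not tested.

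Within Cycling_T, Tyrobp and Nkg7 again differed by treatment, and 3 of the 6 members could be tested. These sums held 5 to 35 cells per mouse, and mono-IL10 mouse 3 was left out with 4. Against PBS 1 of 3 passed, beside 3.13% of 1341 genes, against mono-IL10 2 of 3 passed, beside 6.34%, and between mono-IL10 and PBS 1 of 3 passed, beside 1.27%.

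Tyrobp in Cycling_T stood at 1421, 953, 1103, 852 and 770.2 CPM with IL10/2-Trikine, 395, 801, 490.5, 261 and 603 CPM with PBS and 302, 330.3, 479 and 433 CPM in mono-IL10 mice 1, 2, 4 and 5. Every IL10/2-Trikine mouse was above every mono-IL10 mouse, and 1 PBS mouse lay within the IL10/2-Trikine range. In the fit, the log2 fold change was 1.44 ± 0.23 against mono-IL10 (adjusted p = 0.000185, edgeR) and 0.99 ± 0.24 against PBS (adjusted p = 0.018, edgeR). The call against PBS was lost without IL10/2-Trikine mouse 1 (adjusted p = 0.0657) or PBS mouse 1 (0.0514), 3 (0.0502) or 4 (0.0689) or after thinning the sums to 1 total (0.107), all by edgeR. The NK markers in Cycling_T summed to 2828 to 3854 CPM with IL10/2-Trikine, 1108 to 2357 CPM with mono-IL10 and 1234 to 2453 CPM with PBS, and the T cell markers to 985 to 1631, 3238 to 3883 and 1746 to 3097 CPM. Their part in the difference was not tested.

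All 3 receptors were too low for the test in Cycling_T. Ncr1 stood at 131, 95.3, 211, 170.4 and 106 CPM with IL10/2-Trikine, 65.9, 118, 25.8, 0 and 0 CPM with PBS and 10.7, 82.6, 17.3 and 63.3 CPM with mono-IL10. Klrb1c was 111 to 245 CPM with IL10/2-Trikine, 0 to 139 CPM with PBS and 0 to 57.7 CPM with mono-IL10. For both of these every IL10/2-Trikine mouse lay above every mono-IL10 mouse, and the IL10/2-Trikine and PBS ranges overlapped. Against mono-IL10, 18.6% of the genes past the filter had an unadjusted p under 0.05 in exact permutation tests. Cd226 was 34.1 to 106 CPM with IL10/2-Trikine, 39.4 to 174 CPM with PBS and 84.4 to 158 CPM with mono-IL10, and all its groups overlapped. After thinning to 1500 UMIs, Klrb1c was found in 23.6% of IL10/2-Trikine, 5.45% of PBS and 1.67% of mono-IL10 Cycling_T cells, and Tyrobp in 71.3%, 29.1% and 20.8%, with unthinned Tyrobp shares of 78.7%, 38.2% and 30.0%. In these cells median depths were 3385, 4587 and 6489 UMIs in the same order.

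Nkg7 in Cycling_T stood at 2444, 1847, 2118 and 2680.2 CPM with mono-IL10, 1176, 1446, 1197, 1295 and 1435 CPM with IL10/2-Trikine and 2175, 1169, 1136, 1305 and 1159.5 CPM with PBS. The mono-IL10 mice lay above every IL10/2-Trikine mouse (log2 fold change of IL10/2-Trikine -0.76 ± 0.16, adjusted p = 0.00304, edgeR; -0.66 and 0.0651 after thinning the sums to 1 total), and 1 PBS mouse lay among them. The log2 fold change of mono-IL10 against PBS was 0.74 ± 0.16 (adjusted p = 0.0161, edgeR), and it was lost without PBS mouse 2 (adjusted p = 0.0726) or 3 (0.0554) or mono-IL10 mouse 1 (0.0592) or 5 (0.0532), or after thinning the sums to 1 total (0.203), all by edgeR. Among listed genes in the same fit, Prf1 (1.38 ± 0.26), Fcer1g (1.33 ± 0.25) and Klre1 (1.52 ± 0.32) were higher and Lat (-2.77 ± 0.34) and Cd3d (-1.79 ± 0.22) lower with IL10/2-Trikine than with mono-IL10.

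**Figure D3:**
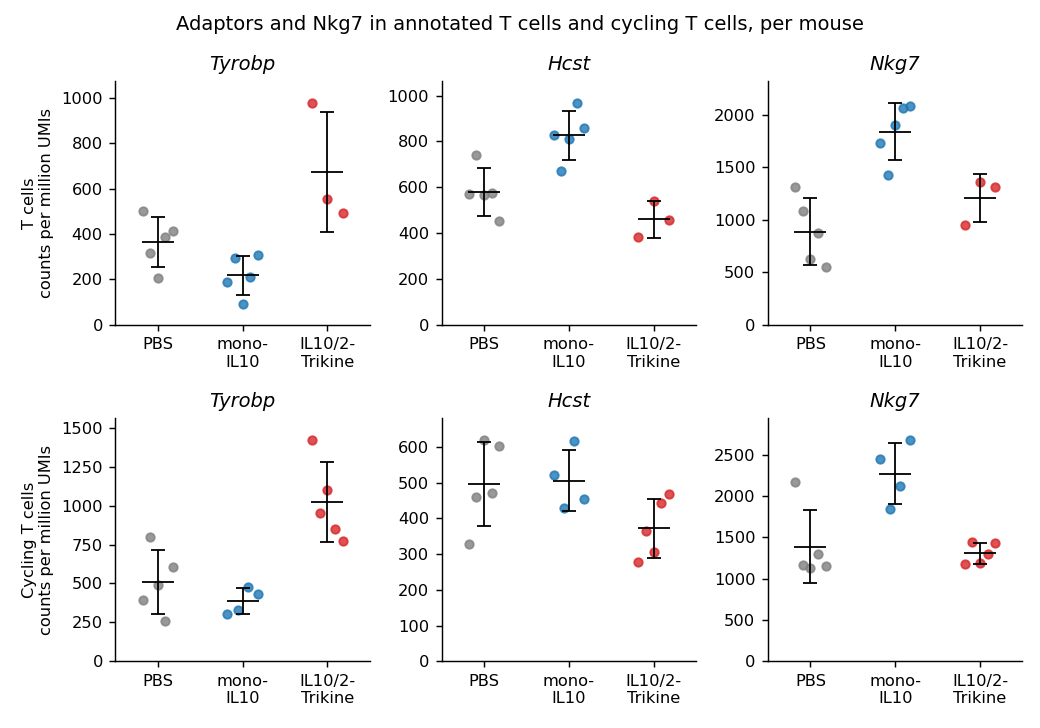
Level of Tyrobp, Hcst and Nkg7 (CPM, vertical axis) per mouse in T cells other than Cycling_T (top) and in Cycling_T (bottom), by treatment; dots are mice and black marks the mean and SD. Tyrobp is higher in every IL10/2-Trikine mouse than in every mono-IL10 mouse in both rows, and Nkg7 is higher with mono-IL10 than with IL10/2-Trikine.

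Whether the treatment difference itself differed between NK cells and T cells was tested in 1 fit over the 12 mice with both sums, with the mouse as a block. Ncr1 and Klrb1c were too low for the test in T cells and were left out, which left 4 members. For IL10/2-Trikine against mono-IL10, 1 of the 4 passed, beside 0.203% of 3446 genes. This was Tyrobp, with a difference (NK cells minus T cells) of -1.52 ± 0.29 on the log2 scale (adjusted p = 0.0262, edgeR), so the difference between the treatments lay more toward IL10/2-Trikine in T cells than in NK cells. The call was lost in 5 of the 12 fits without 1 mouse, namely without IL10/2-Trikine mouse 1, 2 or 5 or mono-IL10 mouse 1 or 4, with adjusted p up to 0.308 (edgeR). The NK marker sums in T cells, given with Nkg7, were higher in both treated groups than with PBS and overlapped between the treated groups. Ncr1 and Klrb1c in T cells were higher in every IL10/2-Trikine mouse than in every mono-IL10 mouse. The part of NK transcripts in the Tyrobp difference was not tested. Against PBS, 0 of the 4 members passed in this edgeR fit, beside 0% of genes, and for mono-IL10 against PBS 0 of 4 passed, beside 0.0871%, with Tyrobp at 1.16 ± 0.26 (adjusted p = 0.0931, edgeR). At an unadjusted p under 0.05, the edgeR fit held 0 of the 4 members against PBS, beside 6.36% of genes, and 3 of the 4 for mono-IL10 against PBS (Tyrobp, Hcst and Nkg7), beside 7.23%.

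**Figure D4:**
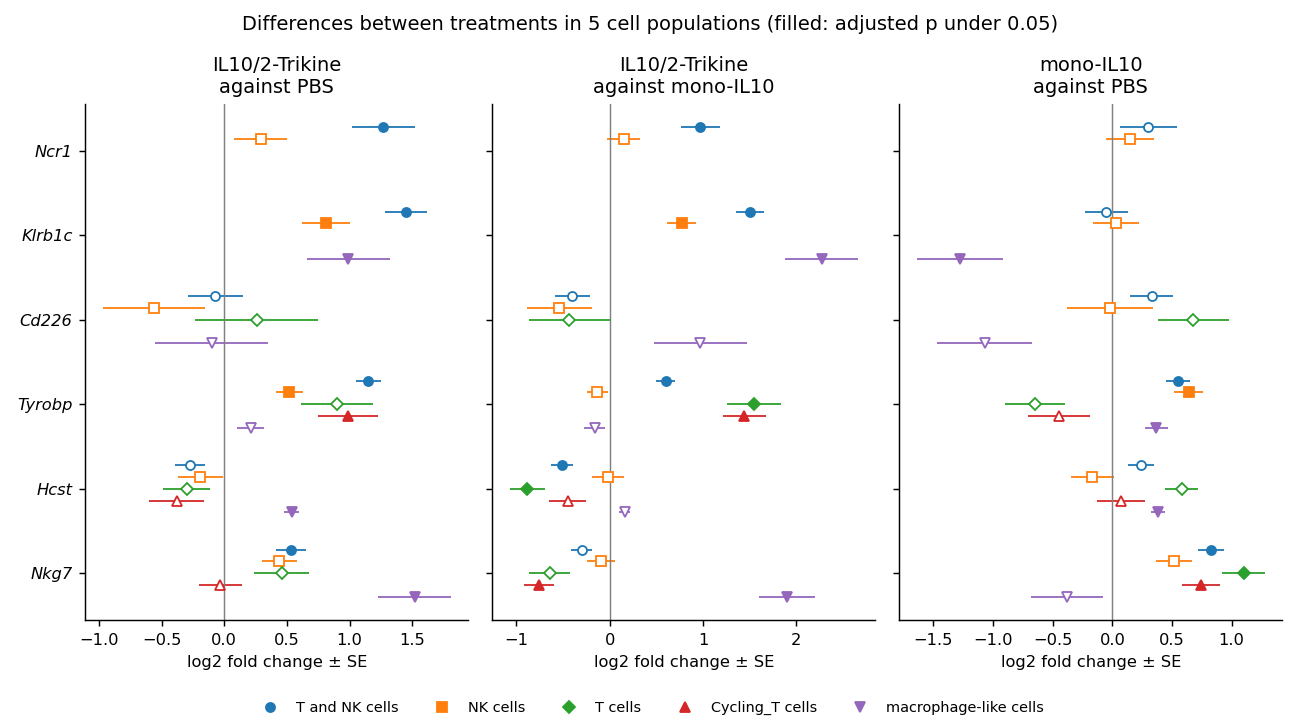
Log2 fold change of each member with its SE (horizontal axis) in the summed populations for the 3 comparisons; filled symbols have an adjusted p under 0.05 in edgeR's test and members too low for the test are absent. Tyrobp lies right of 0 with IL10/2-Trikine against PBS in every population, past the threshold in T and NK cells together, NK cells and Cycling_T, while Hcst is past it to the right in macrophage-like cells and to the left against mono-IL10 in T and NK cells together and in T cells.

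Outside the annotation, Tyrobp and Hcst were read in marker-named classes. In the pools of neutrophil-like cells Tyrobp was 5801 CPM with PBS (383 cells), 6954 CPM with mono-IL10 (636) and 3763 CPM with IL10/2-Trikine (52), and in those of macrophage-like cells 2335, 2786 and 2663 CPM in 7394, 5731 and 5155 cells. Conventional dendritic cell-like pools held 1071, 1314 and 992 CPM of Tyrobp and mature dendritic cell-like pools 1350.0, 1286 and 1493 CPM. Hcst was 227, 228 and 287 CPM in neutrophil-like pools and 71.7, 88.4 and 104 CPM in macrophage-like pools. Tumor epithelial-like pools held 36.4 to 71.0 CPM of Tyrobp and 3.09 to 6.28 CPM of Hcst.

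In macrophage-like cells, the adaptor Hcst rose with both treatments and Tyrobp with mono-IL10. Klrb1c and Nkg7 passed as higher with IL10/2-Trikine against both other groups, at or below 49.5 CPM in every mouse. Of the 5 members tested (Ncr1, with 59 UMIs, was too low), 3 passed for IL10/2-Trikine against PBS, beside 17% of 12073 genes. For IL10/2-Trikine against mono-IL10 2 of 5 passed, beside 10.8%, and for mono-IL10 against PBS 3 of 5 passed, beside 27.1%. These sums joined several marker-named clusters whose cell numbers differed between treatments. A cluster led by Cx3cr1 held 1321, 346 and 126 cells for PBS, mono-IL10 and IL10/2-Trikine, and a cluster led by Cd163 held 150, 1395 and 307. The part of such shifts in the differences of this population was not tested.

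Hcst stood at 106, 110.5, 98.5, 112 and 103 CPM with IL10/2-Trikine, 87.6, 87.6, 88.2, 85.7 and 96.2 CPM with mono-IL10 and 65.9, 69.2, 73.2, 79.6 and 77.9 CPM with PBS. The 3 groups did not overlap, with mono-IL10 in the middle. Against PBS, the log2 fold change was 0.54 ± 0.06 with IL10/2-Trikine (adjusted p = 1.2e-05, edgeR) and 0.38 ± 0.06 with mono-IL10 (adjusted p = 0.000112, edgeR; 0.105 after thinning the sums to 1 total), and between the treated groups 0.16 ± 0.06 (adjusted p = 0.11, edgeR). The NK markers in macrophage-like cells summed to 18.1 to 72.8 CPM with IL10/2-Trikine, 10.2 to 20.05 CPM with PBS and 6.73 to 18.9 CPM with mono-IL10, and the T cell markers to 36.2 to 76.9, 24.4 to 35.5 and 10.1 to 27.2 CPM, so both sums reached their highest values with IL10/2-Trikine and their medians were lower with mono-IL10 than with PBS. The part of RNA from other cells in the Hcst, Nkg7 and Klrb1c results was not tested.

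Tyrobp stood at 2772, 2713, 3069, 2966 and 2255 CPM with mono-IL10, 2586, 2647, 2232, 3065 and 2636 CPM with IL10/2-Trikine and 2195, 2695, 2240.2, 2066 and 2189 CPM with PBS. All groups overlapped, with PBS mouse 2 above the other 4 PBS mice. Mono-IL10 was higher than PBS by 0.37 ± 0.10 on the log2 scale (adjusted p = 0.0133, edgeR), and IL10/2-Trikine differed from PBS by 0.21 ± 0.11 (adjusted p = 0.194, edgeR; 0.0406 without PBS mouse 2). Among 9 myeloid receptors that pair with Tyrobp, Trem1 (0.30 ± 0.07), Sirpb1a (0.54 ± 0.17) and Cd300c2 (0.20 ± 0.07) rose and Cd300lb (-0.52 ± 0.13) fell with mono-IL10 against PBS, or 4 of 9 beside 27.1% of all genes. With IL10/2-Trikine against PBS 1 of the 9 passed, beside 17% of genes, which was Clec5a, and it fell (-0.35 ± 0.11, adjusted p = 0.0366, edgeR).

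Nkg7 in macrophage-like cells stood at 30.6, 19.7, 8.04, 49.5 and 21.1 CPM with IL10/2-Trikine, 8.15, 12.4, 8.87, 9.23 and 6.73 CPM with PBS and 8.47, 7.83, 8.53, 3.29 and 4.07 CPM with mono-IL10. IL10/2-Trikine mouse 3 lay within the PBS range and the other 4 lay above it. In the fit, the log2 fold change was 1.52 ± 0.29 against PBS (adjusted p = 0.00111, edgeR) and 1.90 ± 0.30 against mono-IL10 (adjusted p = 0.00054, edgeR). In tumor epithelial-like cells of the same mice, Nkg7 was 46.6, 16.7, 11.1, 10.1 and 15.6 CPM with IL10/2-Trikine, 3.20, 4.32, 2.33, 7.67 and 3.19 CPM with PBS and 16.8, 4.51, 5.14, 14.7 and 4.26 CPM with mono-IL10.

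Klrb1c in macrophage-like cells was 1.74 to 5.83 CPM with IL10/2-Trikine, 1.26 to 2.12 CPM with PBS and 0.177 to 1.04 CPM with mono-IL10. Its log2 fold change was 2.27 ± 0.39 for IL10/2-Trikine against mono-IL10 (adjusted p = 0.00104, edgeR) and -1.28 ± 0.36 for mono-IL10 against PBS (adjusted p = 0.0128, edgeR). The difference of IL10/2-Trikine from PBS (0.99 ± 0.33, adjusted p = 0.0476, edgeR) was lost in 10 of the 15 fits without 1 mouse (without IL10/2-Trikine mouse 1, 3, 4 or 5, PBS mouse 1, 2, 3 or 5 or mono-IL10 mouse 2 or 4), with adjusted p up to 0.129, and with no filter on low counts (adjusted p = 0.0783, edgeR). In tumor epithelial-like cells Klrb1c was 0.904 to 5.79 CPM with IL10/2-Trikine, 0.0701 to 0.339 CPM with PBS and 0.0624 to 0.507 CPM with mono-IL10. Cd226 did not pass, with a log2 fold change of -1.07 ± 0.40 for mono-IL10 against PBS (adjusted p = 0.0549, edgeR; 0.00602 without PBS mouse 2).

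**Figure D5:**
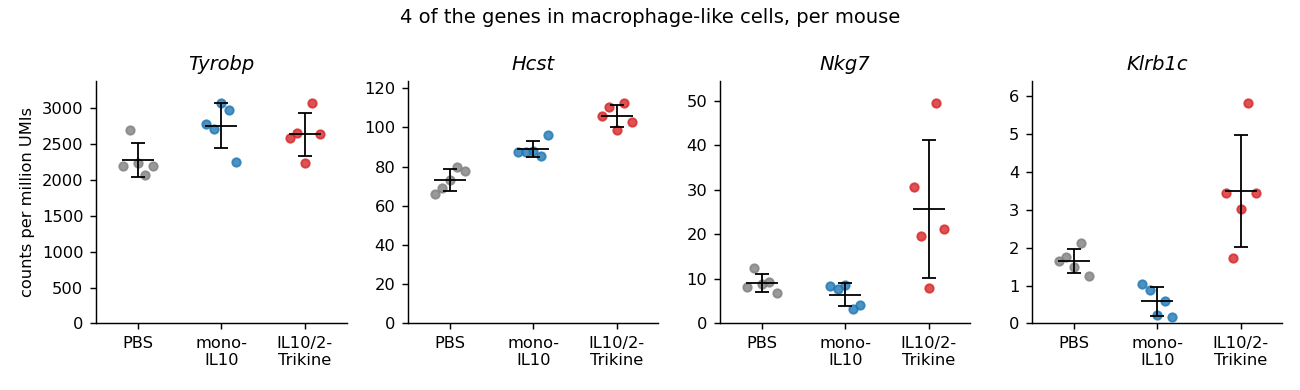
Level of Tyrobp, Hcst, Nkg7 and Klrb1c (CPM, vertical axis) per mouse in macrophage-like cells, by treatment; dots are mice and black marks the mean and SD. For Hcst the 3 groups are stacked without overlap from PBS through mono-IL10 to IL10/2-Trikine, and Nkg7 and Klrb1c stay at or below 49.5 CPM.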

How the data were processed

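The authors aligned the reads of each pooled library with Cell Ranger 9.0.1 to GRCm39 and deposited UMI counts per gene and barcode without normalization, and Seurat 5.1.0 and DESeq2 1.46.0 are named in the submitters' processing notes. The deposited table of annotated cells holds the hashtag call and 1 of 12 cluster names for cells with at least 1000 genes and at most 10% mitochondrial counts. It holds no cells called as hashtag doublets, and its 7858 cells from a group for which no sample was given were not used.

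The members and all gene lists were chosen with earlier results of these data known. Named genes were all 6 members and, in each list, the genes with the smallest adjusted p. Klrb1c and Nkg7 were also part of a score of STAT5 target genes that the study computed on these cells. The UMIs of each mouse were added up over all annotated cells (T and NK cells), NK cells (NK and Cycling_NK), T cells (at least 10 cells), Cycling_T (at least 5 cells) and macrophage-like cells (at least 50 cells). Hashtags of cells outside the annotation were called with HTODemux (Seurat 5.3.0, quantile 0.99, doublets removed) in a run that included the annotated cells. All these cells were grouped together by k-means into 60 clusters on 40 principal components of 2000 genes (scikit-learn 1.9.0, Python 3.11.15). Clusters were named from marker lists with a score of at least 0.25, and annotated cells were then taken out. Such names depend on these settings. Sums were tested with edgeR 4.0.16 (R 4.3.3, TMM, filterByExpr, quasi-likelihood F-test, Benjamini-Hochberg over all genes, threshold 0.05), with all 3 treatments in 1 fit, and the test was checked on simulated data. Ncr1 and Klrb1c, too low in T cells, were left out of the test of the difference between NK and T cells after its values were seen. The SE was taken from the fold change and the F statistic. DESeq2 1.42.0 served as an alternative. Hashtag numbers were taken as mice, and p-values describe the spread between mice pooled in 1 library per treatment. All comparisons share groups with each other. Intervals and the limit for a count of 0 (3 counts) cover counting error only.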

Additional observations from a re-analysis of the deposited data

Results flagged for a closer look

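Of 84 groups of 4 or 5 mice examined, 9 held a mouse far from the others by Dixon's ratio, where chance marks about 1 in 20. In T and NK cells Klrb1c was 156 CPM in PBS mouse 2 (other PBS mice 71.4 to 90.1 CPM), and Cd226 was 147 CPM in mono-IL10 mouse 4 (others 82.7 to 100.5 CPM). In T cells Ncr1 was 35.6 CPM in PBS mouse 5, from 3 UMIs (others 4.62 to 11.8 CPM). In Cycling_T Nkg7 was 2175 CPM in PBS mouse 1 (others 1136 to 1305 CPM), and Klrb1c was 57.7 CPM in mono-IL10 mouse 4, from 10 UMIs (others 0 to 7.51 CPM). In macrophage-like cells, PBS mouse 2 stood apart for Tyrobp at 2695 CPM (others 2066 to 2240.2 CPM) and for Ncr1 at 1.23 CPM, from 16 UMIs (others 0.140 to 0.194 CPM). Mono-IL10 mouse 2 stood apart there for Ncr1 at 1.03 CPM, from 7 UMIs (others 0 to 0.240 CPM), and mono-IL10 mouse 5 for Hcst at 96.2 CPM (others 85.7 to 88.2 CPM).

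The difference between IL10/2-Trikine and mono-IL10 differed between NK cells and T cells for Tyrobp in edgeR's quasi-likelihood test over 12 mice, by -1.52 on the log2 scale (adjusted p = 0.0262).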

How the results depend on the processing

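In all, 287 counts of members under an alternative stayed within 1.5 times the reported count and 52 did not. Of the single values, 788 stayed the same, some of them values without a test. Another 33 gained the threshold, 37 lost it and 18 without a test moved. None of the tested values counted here reversed its sign. A member past the threshold in no setting of a comparison was left out of these single values. Permutation tests in T, Cycling_T and macrophage-like cells and all alternatives for the difference between NK and T cells were chosen after seeing the data. Each count of members called is given with the share of all genes called in the same fit. With no filter on low counts the NK cell counts were 0 for IL10/2-Trikine against mono-IL10 (0.573%) and 2 for mono-IL10 against PBS (0.325%). The T cell counts were then 1 for IL10/2-Trikine against PBS (0.706%), 4 against mono-IL10 (1.72%) and 2 for mono-IL10 against PBS (0.786%), those of Cycling_T 2 (0.406%) and 4 (1.03%) for IL10/2-Trikine against PBS and mono-IL10, and those of the difference between NK and T cells 2 for IL10/2-Trikine against mono-IL10 (0.112%) and 1 for mono-IL10 against PBS (0.0992%). Without the filter more genes were tested. With sums thinned to 1 total, from fewer UMIs, NK cells had 1, 0 and 0 (IL10/2-Trikine against PBS, against mono-IL10, mono-IL10 against PBS; 6.61%, 2.99% and 0.63%), Cycling_T 0, 1 and 0 (2.17%, 4.58% and 0.723%), and macrophage-like cells 1 for IL10/2-Trikine against mono-IL10 (4.62%) and 1 for mono-IL10 against PBS (13.6%). Exact permutation tests without adjustment, over all 6 members, gave 2 and 2 in NK cells (IL10/2-Trikine against mono-IL10, mono-IL10 against PBS), beside 14.6% and 7.9% of the genes past the filter, 1, 5 and 3 in T cells, beside 11.6%, 17.5% and 12.9%, 3 and 4 in Cycling_T (IL10/2-Trikine against PBS and mono-IL10), beside 13.8% and 18.6%, and 5 in macrophage-like cells (IL10/2-Trikine against mono-IL10), beside 22.5%. The NK cluster alone gave 0 for IL10/2-Trikine against mono-IL10 (0.817%), DESeq2 gave 2 in T cells for mono-IL10 against PBS (2.73%), and T cells with Cycling_T added gave 3 and 5 for IL10/2-Trikine against PBS and mono-IL10 (8.97% and 12.3%). Where no construction is named, the cause was not tested. Without 1 mouse in turn, counts ranged from 0 to 1 in NK cells (mono-IL10 against PBS), 0 to 2 and 1 to 2 in T cells (IL10/2-Trikine against mono-IL10, mono-IL10 against PBS), 0 to 1 in Cycling_T (IL10/2-Trikine against PBS, and mono-IL10 against PBS), and 0 to 1 for the difference between NK and T cells (IL10/2-Trikine against mono-IL10, and mono-IL10 against PBS). No paired analysis was possible because hashtag numbers repeat between treatments for different mice. Too few UMIs were counted for a test of Ncr1 and Klrb1c in T cells, all 3 receptors in Cycling_T and Ncr1 in macrophage-like cells.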

Other observations

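NK-like cells outside the authors' annotation, named from NK markers that include no member, numbered 34, 39 and 138 for PBS, mono-IL10 and IL10/2-Trikine. Their pools held 2466 CPM of Tyrobp with PBS (95% exact Poisson interval 2207 to 2748), 3144 CPM with mono-IL10 (2952 to 3346) and 2278 CPM with IL10/2-Trikine (2161 to 2400.3). Hcst was 451, 354 and 333 CPM in the same order. Klrb1c was 150 CPM (91.9 to 232), 161 CPM (120 to 212) and 212 CPM (177 to 251), with overlapping intervals. In the pools of the annotated NK cluster, Tyrobp was 2065, 3190 and 3048 CPM. IL10/2-Trikine thus stood above PBS in that cluster, whereas outside the annotation the Tyrobp intervals of these groups overlapped. In the annotated NK cluster, Ncr1 and Klrb1c were found in the same cell, after thinning to 1500 UMIs, in 5.88% of PBS, 8.70% of mono-IL10 and 12.6% of IL10/2-Trikine cells, and Tyrobp and Hcst in 46.5%, 54.5% and 51.9%. In Cycling_T, Tyrobp and Hcst were found together in 14.5%, 10.8% and 28.7% of cells.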
